A study of Mus musculus with 11 samples.

Results

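The genes described are the tumour suppressor p53 (Trp53) and 5 of its best known targets, Cdkn1a, Mdm2, Ccng1, Bax and Phlda3, in the stomach of mice given tamoxifen, rapamycin or both. Members were the genes of this list that a probe set of the deposited value table names as its only gene symbol, with 1 probe set per gene. Of the 6 genes listed, 4 had such a probe set among the 22180 genes measured: Cdkn1a, Mdm2, Ccng1 and Phlda3. Trp53 and Bax were not analysed here, so the level of p53 itself is not described.

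Total RNA of adult C57Bl/6 mice was measured on Affymetrix arrays. Whole stomach came from mice injected with sunflower oil as the vehicle (2 arrays), with tamoxifen at 5 mg per 20 g of mouse for 3 days (2 arrays), with rapamycin at 0.6 mg per 20 g for 10 days (3 arrays), or with both drugs at those doses (2 arrays). All injections were daily and into the peritoneum. A further array held isolated parietal cells, the acid-secreting cells of the stomach, and another held the stomach cells left once parietal cells were taken out. No drug is named for these 2 fractions. Tamoxifen binds oestrogen receptors, and rapamycin inhibits the growth kinase complex mTORC1. Whole-stomach samples of a group are labelled as biological replicates. Nothing says that each came from a mouse of its own, so p-values measure only the spread between these samples, which may be technical.

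p53 is a transcription factor that is kept low by the ubiquitin ligase Mdm2 and accumulates after DNA damage and other stress. It then switches on genes that stop the cell cycle, repair DNA or kill the cell, and it switches on Mdm2, which closes a feedback loop. The protein of Cdkn1a, p21, inhibits cyclin-dependent kinases, and through the RB and DREAM repressor complexes it keeps genes of DNA replication and mitosis off. Ccng1 encodes cyclin G1, which recruits a phosphatase to Mdm2, and Phlda3 encodes a membrane-lipid binding protein that restrains the kinase Akt.

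The promoter stretches below are shown because they hold letters of the p53 consensus near the start of these p53 targets. They were taken from windows that span 250 bases before a RefSeq start and 50 after it, on assembly GRCm38.p6, and were searched on both strands for the p53 half-site consensus and for a pair of half-sites with at most 1 mismatch in 20 letters. The capitals mark the pair in Cdkn1a and Ccng1 and the single half-site in Mdm2. The stretches are Cdkn1a at chr17:29090898-29090977 on the plus strand, Ccng1 at chr11:40755432-40755511 on the minus strand and Mdm2 at chr10:117710895-117710974 on the minus strand.
Cdkn1a: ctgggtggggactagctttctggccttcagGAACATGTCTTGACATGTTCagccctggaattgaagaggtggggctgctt
Ccng1: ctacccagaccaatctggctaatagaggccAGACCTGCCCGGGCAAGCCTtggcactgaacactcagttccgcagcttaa
Mdm2: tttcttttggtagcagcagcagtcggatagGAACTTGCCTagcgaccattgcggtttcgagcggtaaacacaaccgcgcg
A pair of half-sites was found in 29 of 32851 windows (0.0883%), and among the 6 listed genes in Cdkn1a, where it starts 51 bases before the RefSeq start, and in Ccng1, 195 bases before it. The half-site alone was found in 8.36% of windows and in those of 5 of the 6 listed genes. The Mdm2 half-site lies 186 bases before the start, and the Phlda3 window held none. These matches describe letters in a short window and are no evidence of binding.

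The promoters of proliferation genes are shown beside them because those genes are the ones that p21 is known to hold down. Capitals mark the CCAAT box (ATTGG on the other strand) and TTTGAA, the letters of a cell-cycle element bound by DREAM. The stretches are Cdk1 at chr10:69352903-69353002 and Ccnb2 at chr9:70421545-70421644, both on the minus strand.
Cdk1: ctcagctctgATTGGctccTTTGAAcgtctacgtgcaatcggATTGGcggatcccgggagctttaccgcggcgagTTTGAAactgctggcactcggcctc
Ccnb2: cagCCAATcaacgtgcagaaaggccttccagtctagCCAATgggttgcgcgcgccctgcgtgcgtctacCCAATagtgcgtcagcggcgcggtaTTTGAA
Of the 23 measured proliferation genes, 19 had windows, 20 in all. CCAAT was in 15 of these 20 windows (75.0%) and in 37.4% of all windows. TTTGAA was in 8 of them (40%) and in 17.9% of all windows. No test was made of these shares. Ccnb1, which was listed but not measured, was left out of them, and its window held CCAAT but no TTTGAA.

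The arrays differed within groups in ways that touch several members. Vehicle 2 and tamoxifen 2 were nearer to each other across genes (Pearson r 0.988) than either was to the other array of its own group (0.981 for vehicle, 0.971 for tamoxifen). The mean of 11 measured squamous markers of the forestomach was low with vehicle (5.14, 4.73), on tamoxifen 2 (4.95) and on rapamycin 3 (5.36), and high on tamoxifen 1 (9.63), rapamycin 1 and 2 (9.69, 8.47) and with both drugs (9.02, 9.23). The mean of 13 parietal-cell markers was 9.63 to 9.64 with vehicle and 9.69 to 9.99 with rapamycin, but 8.39 to 8.82 with tamoxifen and 8.53 to 8.67 with both drugs. The mean of 10 chief-cell markers was 8.88 to 8.99 with vehicle, 8.70 to 8.82 with rapamycin and 8.26 to 8.55 on the tamoxifen-treated arrays. The mean of 8 mast-cell markers was 6.99 and 7.60 with vehicle, 5.58 and 6.30 with tamoxifen and 5.53 to 5.83 on the other arrays. The mean of 10 macrophage markers was highest with tamoxifen (7.0, 7.58), against 6.59 to 6.96 on the other arrays. The part of these cells in the results was not tested, other than through the covariates given below. In whole tissue, fewer cells of a type and less RNA per cell cannot be told apart.

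Cdkn1a was the member with the clearest pattern, and it was highest with rapamycin. Its log2 value was 11.13 and 10.95 with vehicle, 11.19 and 11.29 with tamoxifen, 11.65, 11.48 and 11.50 with rapamycin, and 11.16 and 11.18 with both drugs. All 3 rapamycin arrays lay above all 6 other arrays, and both vehicle arrays lay below all others. The first of these patterns, described after its values were seen, was held by 4.32% of all genes, the second by 2.34% and both together by 0.108%. The group means were in the order vehicle (11.04 ± 0.13, SD, n = 2), both drugs (11.17 ± 0.019, n = 2), tamoxifen (11.24 ± 0.068, n = 2) and rapamycin (11.54 ± 0.093, n = 3). No neighbours among the first 3 of these means passed the test against each other, rapamycin did not pass against vehicle or both drugs, and rapamycin against tamoxifen alone was not tested.

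Mdm2, the ubiquitin ligase that degrades p53, varied more within groups than between them. Its log2 value was 7.22 and 8.16 with vehicle, 7.51 and 8.33 with tamoxifen, 7.75, 7.64 and 7.38 with rapamycin, and 7.51 and 7.07 with both drugs. Vehicle 2 and tamoxifen 2, the arrays that stand apart, were its 2 highest, and every pair of groups overlapped. The group means ran from 7.29 ± 0.31 (SD, n = 2) with both drugs through 7.59 ± 0.19 (n = 3) with rapamycin and 7.69 ± 0.66 (n = 2) with vehicle to 7.92 ± 0.58 (n = 2) with tamoxifen, and no neighbours in this order differed beyond their spread.

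Ccng1, the cyclin G1 gene, gave log2 values of 10.18 and 10.59 with vehicle, 10.00 and 10.51 with tamoxifen, 10.02, 10.18 and 10.08 with rapamycin, and 10.05 and 10.00 with both drugs. Vehicle 2 and tamoxifen 2 were again its highest arrays, while the other 7 lay close together. Its group means were 10.03 ± 0.037 (SD, n = 2) with both drugs, 10.09 ± 0.079 (n = 3) with rapamycin, 10.26 ± 0.36 (n = 2) with tamoxifen and 10.38 ± 0.29 (n = 2) with vehicle. No neighbours in this order differed beyond their spread.

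Phlda3, the Akt inhibitor gene, ran the other way. Its log2 value was 7.12 and 6.06 with vehicle, 7.62 and 6.38 with tamoxifen, 7.75, 7.25 and 7.06 with rapamycin, and 7.42 and 7.51 with both drugs. Vehicle 2 and tamoxifen 2 were here its 2 lowest arrays. The means stood in the order vehicle (6.59 ± 0.75, SD, n = 2), tamoxifen (7.0 ± 0.88, n = 2), rapamycin (7.35 ± 0.35, n = 3) and both drugs (7.46 ± 0.064, n = 2), with no neighbours apart by more than their spread.

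The members therefore did not vary as a block. Between the arrays of a group, the vehicle pair (array 2 minus array 1) differed by 0.94 in Mdm2, 0.41 in Ccng1 and -1.06 in Phlda3, and the tamoxifen pair by 0.82, 0.51 and -1.24. Cdkn1a differed by -0.18 and 0.10 in the same pairs. Between arrays of the same number, tamoxifen minus vehicle was 0.29 and 0.17 in Mdm2, -0.18 and -0.08 in Ccng1, 0.51 and 0.32 in Phlda3 and 0.06 and 0.34 in Cdkn1a. No label says that a number pairs the arrays. With 1 array left out in turn, the tamoxifen change turned sign in 2 of 9 fits for each of Mdm2, Ccng1 and Phlda3. The pooled within-group SD was 0.088 for Cdkn1a, at the 7.51th percentile of all genes, against 0.435 for Mdm2 (95.1th), 0.214 for Ccng1 (60.4th) and 0.564 for Phlda3 (98.0th). In the same order, their mean levels stood at the 99.3th, 78.0th, 97.6th and 71.1th percentiles. The part of signal level in the spread was not tested. Across the 9 arrays Pearson r was -0.965 between Ccng1 and Phlda3, 0.814 between Mdm2 and Ccng1 and -0.695 between Mdm2 and Phlda3, while Cdkn1a gave r from -0.416 to 0.467 with the others. These arrays share treatments and the array differences above, so the correlations are descriptions. With the squamous mean as a covariate, Phlda3 with both drugs against vehicle went from 0.88 to -0.02 and with tamoxifen from 0.42 to -0.09, while Cdkn1a with rapamycin went from 0.50 to 0.49.

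**Figure D1:**
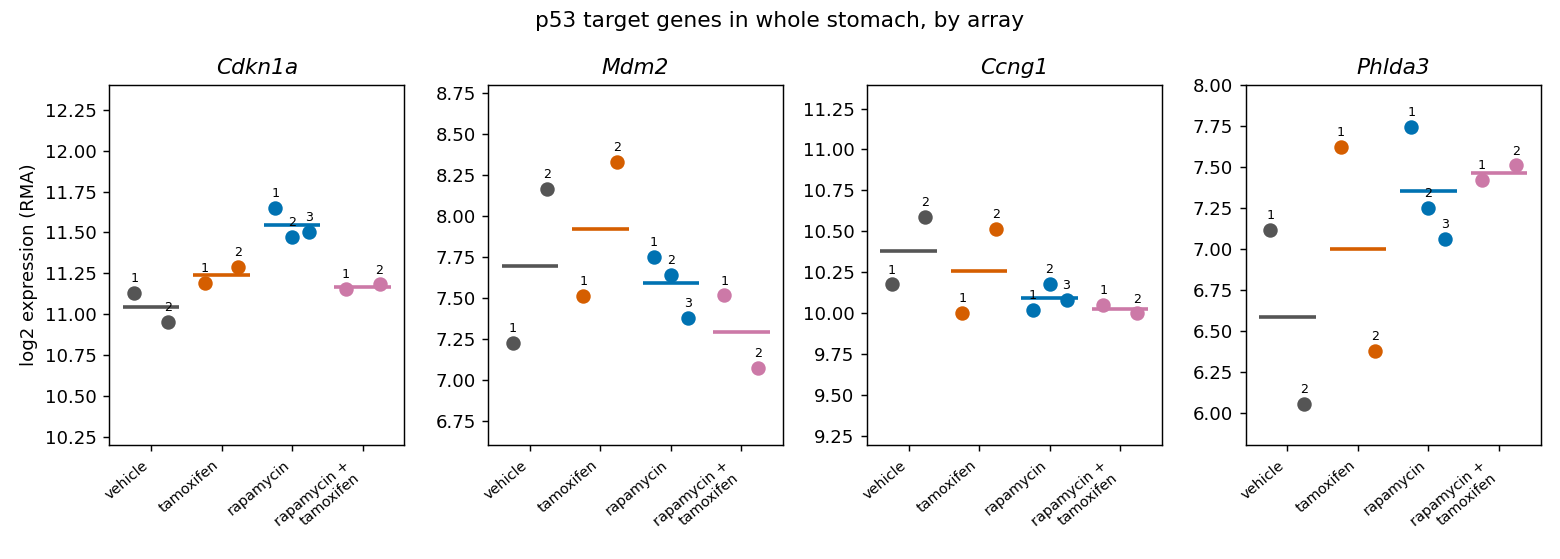
Log2 expression of 4 p53 target genes on each of 9 whole-stomach arrays, with the treatment groups on the horizontal axis; each point is 1 array with its replicate number and each bar a group mean, and every panel spans the same number of log2 units. Cdkn1a is highest on the 3 rapamycin arrays (11.48 to 11.65), while Mdm2 and Ccng1 are highest, and Phlda3 lowest, on the arrays vehicle 2 and tamoxifen 2.

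The first comparison set tamoxifen alone against vehicle. None of the 4 members passed the test (limma, Benjamini-Hochberg adjusted p under 0.05), against 1.72% of all genes. Cdkn1a differed by 0.20 ± 0.14 log2 units (SE, adjusted p = 0.770, limma), with a 95% confidence interval from -0.11 to 0.51, and both its tamoxifen arrays lay above both vehicle arrays, as did those of 13.4% of genes. Mdm2 differed by 0.23 ± 0.35 (adjusted p = 0.952), Ccng1 by -0.13 ± 0.20 (adjusted p = 0.955) and Phlda3 by 0.42 ± 0.44 (adjusted p = 0.893), all with overlapping groups. Without vehicle 2 and tamoxifen 2 this sets 1 array against 1, and the changes were 0.06, 0.29, -0.18 and 0.51, in the same order.

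Proliferation genes rose in the same comparison. All 23 measured of the 24 listed had both tamoxifen arrays above both vehicle arrays, as 13.4% of all genes had. Of the 23, 18 were called higher, as 0.933% of all genes were, with a median of 1.02 against -0.018 over all genes. The list was chosen with earlier results of these data known, so these and later counts from it are descriptions. The largest called changes were in Rrm2, a ribonucleotide reductase subunit that makes DNA precursors (1.55 ± 0.16, adjusted p = 0.00650, limma), Birc5, the mitotic regulator survivin (1.30 ± 0.14), Top2a, a topoisomerase of dividing cells (1.29 ± 0.19), and Cdk1, the kinase that drives mitosis (1.26 ± 0.14). The count fell to 11, 10 and 10 without rapamycin 1, 2 and 3, and to 0 in a fit of only the 4 vehicle and tamoxifen arrays. It also fell when any 1 vehicle or tamoxifen array was left out, which leaves 1 array in that group. Without both vehicle 2 and tamoxifen 2 the comparison is 1 array against 1, and the median was 0.93. Of the 4 genes named, Top2a lost its call without vehicle 1 or tamoxifen 2 (adjusted p 0.0659 to 0.0877). In the same comparison 4 of 10 chief-cell, 2 of 13 parietal-cell, 2 of 8 mast-cell, 1 of 6 neck mucous cell and 1 of 5 exocrine pancreas markers were called lower. From each of the chief-cell, squamous, macrophage and endocrine lists 1 was called higher. Of all genes 0.784% were called lower and 0.933% higher. All 10 macrophage markers stood higher (median 0.66). With the parietal-marker mean as a covariate, an alternative added after seeing the data, 0 proliferation genes were called, and the same held for every other gene named as called in any comparison. That mean is lower on all 4 tamoxifen-treated arrays than on all 5 others, so it and tamoxifen cannot be told apart in these samples.

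Of 29 further p53 targets 26 were measured, with a median of 0.06, and 1 was called, where 1.72% of all genes were. This was Tnfrsf10b, a death receptor for the ligand TRAIL, which rose by 1.12 ± 0.19 (adjusted p = 0.0292, limma), from 6.34 and 6.14 to 7.33 and 7.39. Leaving out any 1 array other than rapamycin 2 or 3 ended the call (adjusted p 0.0572 to 0.111). Plk3, a stress-response kinase, showed 1.34 ± 0.30 without passing (adjusted p = 0.0756).

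Rapamycin against vehicle shows rapamycin without tamoxifen, and mTORC1 activity was not measured. Again 0 of 4 members passed, where 0.0496% of genes did (11 genes, against 1977 genes, 8.91%, at an unadjusted p under 0.05). Cdkn1a showed the smallest adjusted p of the members and was 0.50 ± 0.12 higher (95% confidence interval 0.22 to 0.78, limma adjusted p = 0.333). Its 3 rapamycin arrays all lay above both vehicle arrays, a pattern held by 12.7% of genes. Phlda3 differed by 0.77 ± 0.40 (adjusted p = 0.596), Mdm2 by -0.10 ± 0.32 (adjusted p = 0.920) and Ccng1 by -0.29 ± 0.18 (adjusted p = 0.625), with overlapping groups. Without vehicle 2 and tamoxifen 2, Cdkn1a was 0.41 higher, Phlda3 0.24 and Mdm2 0.37, a turn of direction for Mdm2, and Ccng1 was at -0.08.

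No proliferation gene was called with rapamycin alone, where the median was -0.22. The 2 largest differences were in Mki67, the proliferation antigen Ki-67 (-1.104 ± 0.26, adjusted p = 0.316), and Top2a (-0.84 ± 0.18, adjusted p = 0.260). All rapamycin arrays lay below both vehicle arrays for 12 of the 23 genes and above for 1, against 14.3% and 12.7% of all genes. No other p53 target was called (median 0.01), the largest differences being in Plk3 (0.64 ± 0.28) and in Perp, a desmosome protein of dying and squamous cells (0.50 ± 0.26).

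Rapamycin plus tamoxifen was set against vehicle to see both drugs together. The 4 members were again uncalled, against 1.15% of genes. Phlda3 differed by 0.88 ± 0.44 (adjusted p = 0.424) and Ccng1 by -0.36 ± 0.20 (adjusted p = 0.474), each without overlap between the groups, as 19.3% of genes had in the higher and 24.8% in the lower direction. Cdkn1a was 0.13 ± 0.14 higher (adjusted p = 0.731), also without overlap, and Mdm2 was at -0.40 ± 0.35 (adjusted p = 0.654). Without vehicle 2 and tamoxifen 2, Phlda3 was at 0.35, Ccng1 at -0.15 and Cdkn1a at 0.04, and Mdm2 turned to 0.07.

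Of the proliferation genes 7 of 23 were called higher than vehicle (median 0.71), against 0.41% of all genes, led by the replication helicase subunits Mcm6 (1.08 ± 0.14, adjusted p = 0.0136), Mcm4 (1.05 ± 0.14) and Mcm7 (0.93 ± 0.16) and by Rrm2 (0.86 ± 0.16). The count was 0 with either the squamous or the parietal mean as a covariate and 2 without any 1 rapamycin array. It also fell when any 1 vehicle or combination array was left out, which leaves 1 array in that group. Each of the 4 genes named lost its call without some arrays, Mcm6 in 3, Mcm4 in 4, Mcm7 in 7 and Rrm2 in 7 of the 9 fits that left out 1 array (adjusted p 0.0517 to 0.347 where lost). None of 26 other p53 targets was called (median 0.02), Plk3 standing at 1.04 ± 0.30 and Tnfrsf10b at 0.87 ± 0.19.

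Rapamycin plus tamoxifen against rapamycin shows tamoxifen on a rapamycin background. The comparison shares its treated arrays with the one above, so they are not independent. No member passed, against 2.45% of genes. Cdkn1a was 0.37 ± 0.12 lower (95% confidence interval -0.66 to -0.09, limma adjusted p = 0.204), and both arrays of the combination lay below all 3 rapamycin arrays, as 20.4% of genes did. Mdm2 was at -0.30 ± 0.32, Ccng1 at -0.07 ± 0.18 and Phlda3 at 0.11 ± 0.40.

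Over the same arrays 16 of 23 proliferation genes were called higher (median 0.94), against 1.13% of all genes. All 23 stood above rapamycin on every array, as 18.7% of all genes did. Top2a rose by 1.49 ± 0.18 (adjusted p = 0.00473, limma), Birc5 by 1.46 ± 0.13, the mitotic cyclin gene Ccnb2 by 1.23 ± 0.17 and the spindle checkpoint kinase gene Bub1 by 1.19 ± 0.24. The count lay between 2 and 18 when 1 array was left out (2 and 3 without combination 1 and 2, 10, 9 and 9 without rapamycin 1, 2 and 3), and was 0 with the parietal mean as a covariate. Bub1 lost its call without any 1 of these 5 arrays (adjusted p up to 0.371), Ccnb2 without either combination array and Top2a without combination 1. Among other p53 targets Ak1, an adenylate kinase, fell by 0.98 ± 0.18 (limma, adjusted p = 0.0257). It was the only 1 of 26 called (median 0.13), where 2.45% of all genes were. Ak1 was uncalled without any 1 of the 3 rapamycin or 2 combination arrays.

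Against tamoxifen alone, the combination moved no gene past the threshold (0%), although 5.67% of genes had an unadjusted p under 0.05. Cdkn1a was at -0.07 ± 0.14 (95% confidence interval -0.38 to 0.24), with both arrays of the combination below both tamoxifen arrays, as 20.3% of genes had. Mdm2 was at -0.63 ± 0.35, Ccng1 at -0.23 ± 0.20 and Phlda3 at 0.46 ± 0.44, with overlapping groups. The proliferation genes had a median of -0.28, with 0 called. Both arrays of the combination lay below both tamoxifen arrays for 14 of these 23 genes and above for 0, and 9 of 23 had an unadjusted p under 0.05.

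**Figure D2:**
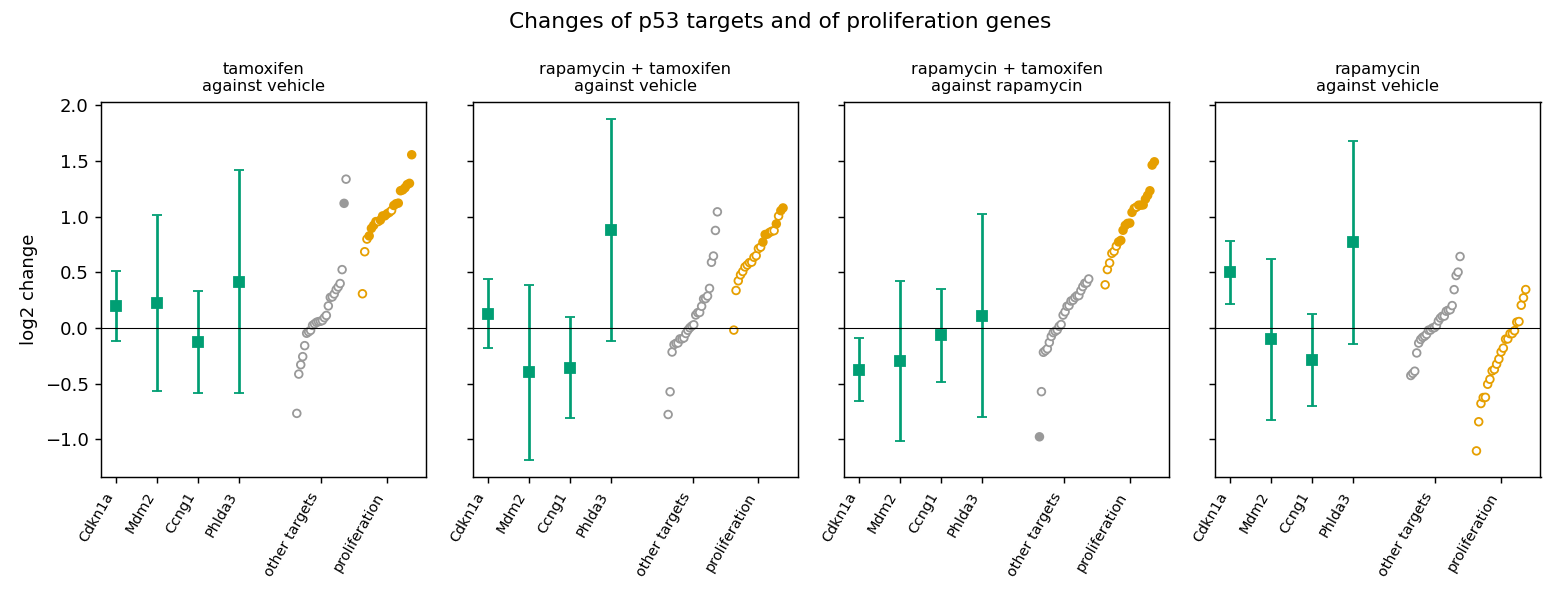
Log2 change of the 4 members (squares, bars are 95% confidence intervals), of 26 other p53 targets and of 23 proliferation genes (circles, filled where called at an adjusted p under 0.05) in 4 comparisons; values share one vertical axis. In 3 of them, those with tamoxifen, proliferation genes have medians of 0.71 to 1.02. Members' intervals, which are not adjusted over genes, mostly cross 0. Those of Cdkn1a are clear of 0 against rapamycin and with rapamycin alone, but no member was called.

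The Cdkn1a response to tamoxifen had opposite signs with and without rapamycin: 0.20 without it and -0.37 with it. The interaction was -0.57 ± 0.19 (95% confidence interval -0.99 to -0.15), which did not pass over all genes (limma, adjusted p = 0.9999), and 0% of genes did, while 2.83% had an unadjusted p under 0.05. The interaction was -0.52 ± 0.47 for Mdm2, 0.06 ± 0.27 for Ccng1 and -0.30 ± 0.60 for Phlda3. For the 23 proliferation genes it had a median of -0.05 and 0 calls. 

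**Figure D3:**
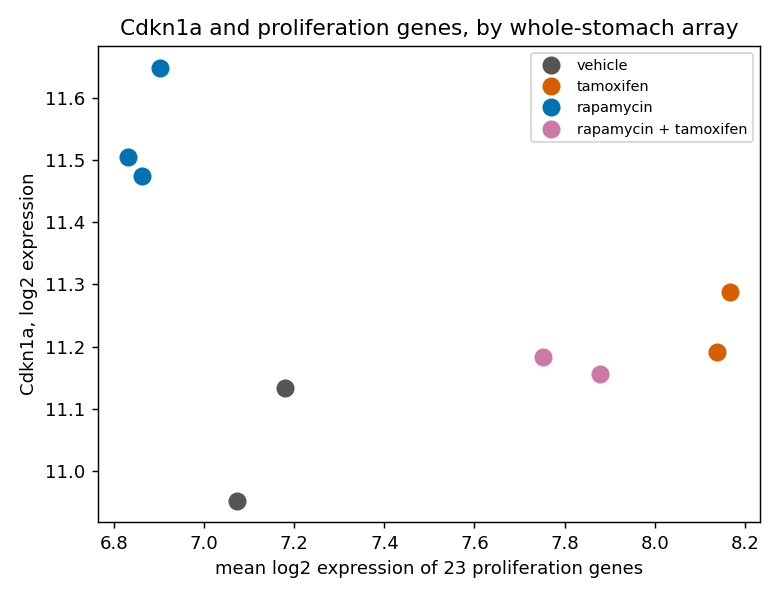
Cdkn1a (vertical axis, log2) against the mean of 23 proliferation genes (horizontal axis, log2), 1 point per whole-stomach array, coloured by treatment. The tamoxifen-treated arrays lie to the right (7.75 to 8.17) at Cdkn1a of 11.16 to 11.29, the rapamycin arrays to the left (6.83 to 6.90) at 11.48 to 11.65, and vehicle at 7.07 to 7.18 with 10.95 to 11.13.

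The mean of the proliferation genes was 7.18 and 7.07 with vehicle, 8.14 and 8.17 with tamoxifen, 6.90, 6.86 and 6.83 with rapamycin, and 7.88 and 7.75 with both drugs. Groups do not overlap in it, and it is highest where tamoxifen was given. Cdkn1a stood below the rapamycin arrays on each of the 4 tamoxifen-treated ones, and both vehicle arrays had the lowest Cdkn1a at a proliferation mean near that of rapamycin. The arrays form separate groups, so no correlation is given.

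Averaged over rapamycin, the tamoxifen change had a smaller SE for each member than in the other comparisons. No member passed, against 5.85% of genes: Cdkn1a was at -0.09 ± 0.09, Mdm2 at -0.04 ± 0.24, Ccng1 at -0.10 ± 0.14 and Phlda3 at 0.26 ± 0.30. The 95% confidence interval of Cdkn1a ran from -0.30 to 0.12. For this gene the average joins changes of opposite sign without and with rapamycin, so it estimates neither. Of the 23 proliferation genes 22 were called higher (median 1.0), as 3.24% of all genes were. Top2a rose by 1.39 ± 0.13, Birc5 by 1.38 ± 0.09, Rrm2 by 1.31 ± 0.11 and Cdk1 by 1.21 ± 0.10 (adjusted p = 0.000486). The count was 19 to 22 when 1 array was left out and 0 with the parietal mean as a covariate.

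Other p53 targets passed in this average in both directions, 2 higher and 2 lower of 26 (median 0.14), where 3.24% of all genes were called higher and 2.61% lower. Plk3 rose by 0.87 ± 0.21 (adjusted p = 0.0436) and Tnfrsf10b by 0.76 ± 0.13 (adjusted p = 0.0105). Ak1 fell by 0.87 ± 0.13 (adjusted p = 0.00533) and Rrm2b, a p53-induced ribonucleotide reductase subunit, by 0.49 ± 0.12 (adjusted p = 0.04997). Plk3 was above vehicle on rapamycin arrays too, at 7.60, 7.18 and 6.62 against 6.53 and 6.46. Rrm2b lost its call under median centring and where probe sets of a gene were averaged (adjusted p 0.0734 and 0.0501). When 1 array was left out, Plk3 kept its call only without tamoxifen 1 or rapamycin 1 (adjusted p up to 0.184 otherwise) and Rrm2b only without vehicle 1 or tamoxifen 2 (up to 0.174 otherwise). Tnfrsf10b lost its call without combination 1 (adjusted p = 0.0618), and Ak1 lost it in 0 of 9 such fits.

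**Figure D4:**
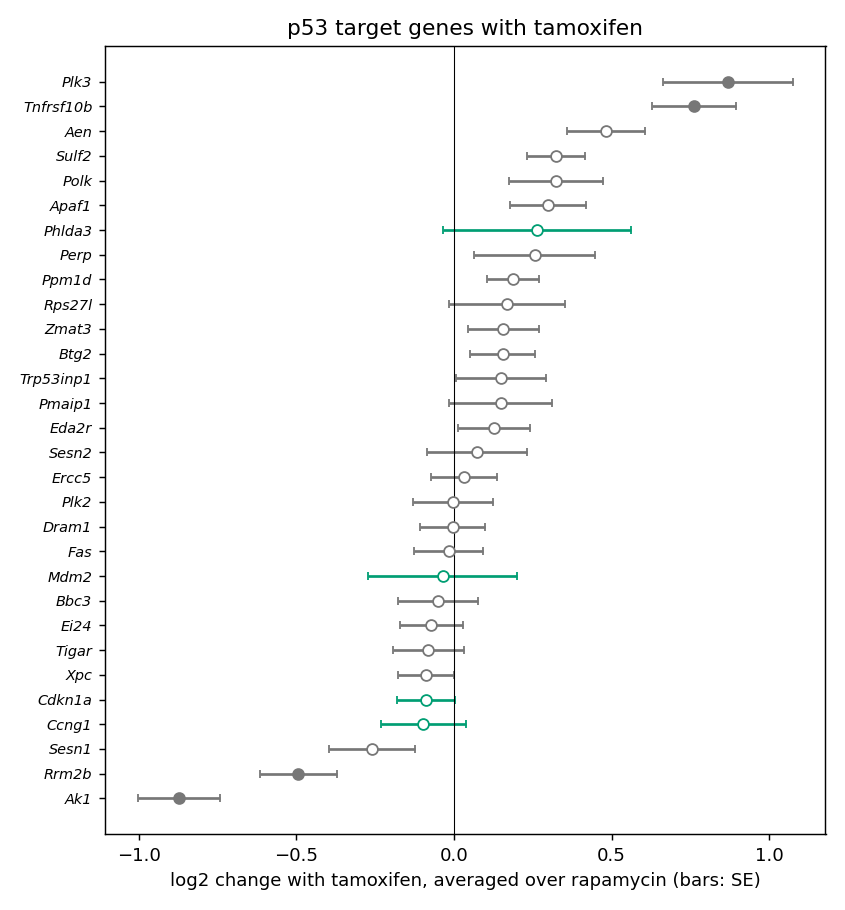
Log2 change with tamoxifen, averaged over rapamycin, for the 4 members (green) and 26 other p53 targets (grey), with bars of 1 SE and filled points for genes called at an adjusted p under 0.05. Plk3 (0.87) and Tnfrsf10b (0.76) are called higher, Ak1 (-0.87) and Rrm2b (-0.49) lower, and the 4 members lie between -0.10 and 0.26.

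Regulators of p53 were measured for all 17 listed genes. Npm1, a nucleolar protein that can bind Mdm2, rose by 0.87 ± 0.17 with tamoxifen (limma, adjusted p = 0.0426). With both drugs it rose by 0.88 ± 0.17 against vehicle (adjusted p = 0.0499) and by 0.85 ± 0.15 against rapamycin (adjusted p = 0.0259). It was the only 1 of 17 regulators called in each, where 1.72%, 1.15% and 2.45% of all genes were called. The call with tamoxifen and that with both drugs against vehicle held only without vehicle 2 when 1 array was left out (adjusted p up to 0.169 and 0.34 otherwise), and the call against rapamycin was lost without any 1 rapamycin or combination array (up to 0.241). In the average, 4 of 17 were called higher, against 3.24% of all genes. Npm1 rose by 0.86 ± 0.11, the checkpoint kinase gene Chek1 by 0.80 ± 0.13, the damage-sensing kinase gene Atr by 0.56 ± 0.13 and the ribosomal protein gene Rpl5 by 0.44 ± 0.08. The probe set used for Rpl5 stood near the middle of all genes in the parietal and other fractions (3.97 and 3.76, 49.9th and 45.6th percentiles). How well it reports the Rpl5 transcript was not tested. Leaving out 1 array ended the call of Npm1 in 0 of 9 fits, of Chek1 without combination 1 (adjusted p = 0.0526), of Atr without any array but vehicle 2 or tamoxifen 1 (up to 0.141), and of Rpl5 without rapamycin 1 or 3 or either combination array (up to 0.0944). With rapamycin alone 0 were called, the largest differences being Atm (-0.54 ± 0.17) and Hipk2 (0.28 ± 0.16). The p53 relatives Trp63 and Trp73 were uncalled throughout. Trp63, which also marks squamous epithelium, was at 5.36 and 4.08 with vehicle and at 6.73 and 4.0 with tamoxifen, and it is itself 1 of the 11 genes in the squamous mean.

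Among cyclins and kinases that p21 binds, 3 of 10 measured genes were called higher with tamoxifen, against 0.933% of all genes. These were Cdk1, the S-phase cyclin gene Ccna2 (1.01 ± 0.13) and the replication clamp Pcna (0.69 ± 0.14). Cdk1, Ccna2 and Ccne1 are also in the proliferation list, so any call of theirs is counted in both lists. With both drugs against vehicle Ccnd1 (0.80 ± 0.15) and Cdk1 (0.77 ± 0.14) rose, where 0.41% of all genes were called higher. Against rapamycin Cdk1 (1.16 ± 0.13), Ccna2 (1.102 ± 0.12) and Pcna (0.69 ± 0.12) rose, where 1.13% of all genes were called higher. In the average 7 of 10 were called higher, against 3.24% of all genes, Cdk6 (0.92 ± 0.16) among them. When 1 array was left out, Pcna with tamoxifen lost its call in 9 of 9 fits (adjusted p 0.0618 to 0.186), and Cdk1 in 0. Against vehicle, Ccnd1 and Cdk1 with both drugs kept theirs only without tamoxifen 1 or 2 (up to 0.378 and 0.34 otherwise). Against rapamycin, Pcna lost its call without any 1 rapamycin or combination array (up to 0.215). Ccna2 lost it with tamoxifen without vehicle 2 (0.0521) and against rapamycin without either combination array (0.0538 to 0.0588), where Cdk1 lost it without combination 2 (0.0582). In the average Cdk6 lost it without combination 1 (0.0554), and Cdk1, Ccna2 and Pcna in 0 of 9 fits. Cdk1, Ccna2 and Pcna with rapamycin alone were at -0.39, -0.68 and -0.04, none called, and Ccnd2 was at 0.39 ± 0.15.

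Of 6 other inhibitors of these kinases that were measured, 2 were called lower in at least 1 comparison, where 0.784% of all genes were called lower with tamoxifen, 0.735% with both drugs against vehicle, 1.32% against rapamycin and 2.61% in the average. Cdkn1c, which encodes p57, fell by 1.32 ± 0.22 with tamoxifen (adjusted p = 0.0266) and by 1.6 ± 0.22 with both drugs against vehicle (adjusted p = 0.0146). Cdkn2b, which encodes p15, fell by 1.24 ± 0.22 with both drugs against rapamycin (adjusted p = 0.0257). In the average both fell, by 1.1 ± 0.15 and 1.01 ± 0.16, and the other 4 were not called in either direction. When 1 array was left out, Cdkn1c with tamoxifen kept its call only without vehicle 2 or either combination array (adjusted p up to 0.12 otherwise), and with both drugs it lost it without vehicle 1 or either combination array (up to 0.117). Cdkn2b lost its call against rapamycin without any 1 rapamycin or combination array (up to 0.254), and both kept theirs in the average. With rapamycin alone Cdkn1c was at -0.72 ± 0.20 and Cdkn2b at 0.55 ± 0.22, neither called. Cdkn2b was 2.43 log2 units higher in the parietal than in the other fraction, and the parietal-marker mean was lower on the same arrays, so the 2 cannot be told apart.

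RB and DREAM components were measured for 9 genes. Tfdp1, an E2F partner, rose by 0.83 ± 0.14 with tamoxifen (adjusted p = 0.0241), by 0.77 ± 0.14 with both drugs against vehicle (adjusted p = 0.0386) and by 0.80 ± 0.13 against rapamycin (adjusted p = 0.0142). The pocket protein gene Rbl1 rose by 0.72 ± 0.14 against rapamycin. In these 3 comparisons 1, 1 and 2 of the 9 were called, where 1.72%, 1.15% and 2.45% of all genes were. In the average 4 of 9 were called, against 5.85% of all genes: Tfdp1 (0.82 ± 0.09), Rbl1 (0.71 ± 0.10) and Lin9 (0.61 ± 0.11) rose and Rbl2 fell by 0.58 ± 0.12. When 1 array was left out, Tfdp1 kept its call with tamoxifen only without vehicle 2 (adjusted p up to 0.106 otherwise) and with both drugs against vehicle only without tamoxifen 1 or 2 (up to 0.267). Against rapamycin, Tfdp1 and Rbl1 lost theirs without any 1 rapamycin or combination array (up to 0.148 and 0.256). In the average Rbl2 kept its call only without vehicle 1 or tamoxifen 2 (up to 0.122), Lin9 lost it without combination 1 (0.0646), and Tfdp1 and Rbl1 kept it. With rapamycin alone E2f4 was at 0.45 ± 0.21 and Lin54 at -0.43 ± 0.19, neither called. In the BCL2 family, which decides cell death, Bok rose by 0.48 ± 0.09 in the average, the only 1 of 12 called, where 5.85% of all genes were, and it lost its call without vehicle 1, tamoxifen 2, rapamycin 1 or 2 or combination 1 (adjusted p up to 0.104). Uncalled members with the largest differences were Bcl2a1a (0.53 ± 0.26) and Bok (0.49 ± 0.14) with tamoxifen, Bok (0.61 ± 0.14) and Bcl2a1a (0.52 ± 0.26) with both drugs, Bok (0.47 ± 0.13) and Bid (0.38 ± 0.21) with both drugs against rapamycin, and Hrk (-0.60 ± 0.24) and Bcl2 (0.54 ± 0.30) with rapamycin.

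Genes with the most similar pattern over the 9 arrays, among 11086 genes above the median level, were found by Pearson r. They were Bet1l (0.947), Scd1 (0.930) and Tox4 (0.927) for Cdkn1a, Sh3glb2 (0.9745), Fbxo28 (0.973) and Zfp110 (0.971) for Mdm2, Rab3gap1 (0.995), Setbp1 (0.990) and Xrcc4 (0.983) for Ccng1, and Phyhip (0.978), Ide (0.974) and Otop2 (0.974) for Phlda3. These are descriptions over arrays that share treatments.

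In the separated cells, each fraction had 1 array and no test was possible. The fraction arrays had medians of 3.67 and 3.68 against 4.95 to 5.09 in whole stomach, so they were compared only with each other. Cdkn1a was 10.48 in parietal cells and 9.70 in the other cells, Mdm2 7.05 and 6.28, and Ccng1 9.55 and 8.80, differences of 0.78, 0.77 and 0.75 towards parietal cells. Phlda3 was near equal, at 3.72 and 3.81. None of the 4 differed by 1 log2 unit or more, as 12.8% of all genes did, and their median difference was 0.76 against 0.026 over all genes. The labelled parietal cells carried their markers, 10 of 13 standing at least 1 log2 unit higher, with a median of 3.23. Of 7 pit mucous cell markers 6, and of 10 chief-cell markers 5, were lower there by that much. Some of them were still high in the parietal fraction, such as Gkn1 (11.73 against 13.10) and Pgc (10.67 against 12.90). Psca, a pit mucous cell marker, was higher there (12.72 against 12.20). The part of other cells in the members' differences was not tested.

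Other p53 targets differed in both directions between fractions, 3 higher and 5 lower by 1 log2 unit or more of 26 (median -0.10), where 6.32% of all genes were higher and 6.46% lower by that much. Xpc, a damage-recognition protein, was 1.89 higher in parietal cells and Rrm2b 1.11 higher, while Sulf2 was 2.25 lower, Tnfrsf10b 1.94 lower and Perp 1.49 lower. Proliferation genes were lower in parietal cells by 1 log2 unit or more in 12 of 23 (median -1.01), for example Top2a at 2.74 against 6.27.

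**Figure D5:**
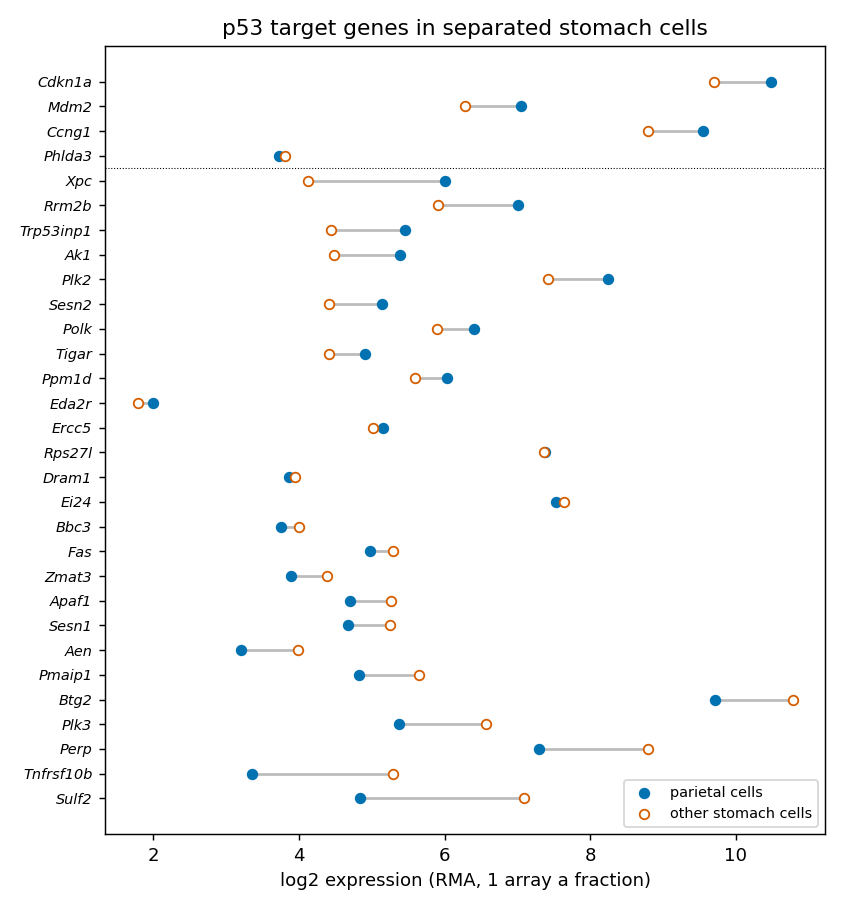
Log2 expression in isolated parietal cells (filled) and in the other stomach cells (open), 1 array each, for the 4 members (above the dotted line) and 26 other p53 targets. Cdkn1a, Mdm2 and Ccng1 are 0.75 to 0.78 higher in parietal cells, Phlda3 is level, and other targets lie on both sides.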

How the data were processed

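Per the labels' protocols RNA was purified on RNeasy columns and checked on a Bioanalyzer. The authors deposited log2 expression values for 41345 probe sets on 11 arrays, made with RMA in Partek per the submitters' processing notes. Its version and settings: not given in the sources used here. GEO's platform annotation named 1 symbol for 23521 probe sets, several for 1814 and none for 16010. Where several probe sets named a gene, the one with the highest 9-array mean in whole stomach was used (22180 genes), and dim ones were kept.

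The model had 1 mean per group (limma 3.58.1, R 4.3.3, 5 residual degrees of freedom, prior 3.86), with p-values adjusted by Benjamini-Hochberg over all genes and calls at 0.05. The fit was tested on simulated data, where it missed many planted changes of the smaller size, so a missing call is no sign of no change. Errors after ± are SE unless named SD. Fraction arrays had no test. Members and gene lists were chosen with earlier results of these data known. All members are named; from each list up to 4 called genes of largest change per comparison are named, or 2 where none was called. A few further genes and values (Plk3 with tamoxifen, Sulf2, Xpc, Perp, Top2a in fractions) were chosen after their values were seen. Promoters come from RefSeq on GRCm38.p6, and all 6 listed genes matched. Alternatives are given in the closing section. Leaving out 1 array of a group of 2 leaves 1 array there, so its spread is taken from the other groups. The number of arrays limits the precision.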

Additional observations from a re-analysis of the deposited data

Results flagged for a closer look

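Cdkn1a with tamoxifen stood higher on both arrays without rapamycin and lower on both arrays with it, and the difference between these changes was -0.57 (limma, adjusted p = 0.9999). The groups did not overlap in either comparison, which 324 of 22180 genes (1.46%) shared. This share was counted on the same arrays in which the Cdkn1a pattern was seen. The difference did not pass the test over all genes.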

How the results depend on the processing

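No alternative called a member: over 552 values of the 4 members the lowest adjusted p was 0.0835, and no change of Cdkn1a turned sign in whole stomach under any alternative run. Leaving out vehicle 2 and tamoxifen 2, and the parietal-marker mean as a covariate, were added after the data were seen. With quantile normalization again and with median centring, called proliferation genes numbered 3 for both drugs against vehicle. With every probe set tested by itself, called proliferation genes numbered 7 for tamoxifen against vehicle, 2 for both drugs against vehicle and 10 for both drugs against rapamycin. With only the groups compared in the fit, called proliferation genes numbered 0 for tamoxifen against vehicle and 2 for both drugs against vehicle. With dim genes left out and with limma's trend and robust options, called proliferation genes numbered 11 for both drugs against vehicle. With the replicate block, called proliferation genes numbered 11 for tamoxifen against vehicle and 2 for both drugs against vehicle. With the squamous mean as a covariate, called proliferation genes numbered 8 for tamoxifen against vehicle and 0 for both drugs against vehicle. With vehicle 2 and tamoxifen 2 left out, vehicle and tamoxifen keep 1 array each, so no count of called proliferation genes is given. With the parietal mean as a covariate, called proliferation genes numbered 0 for tamoxifen against vehicle, 0 for both drugs against vehicle, 0 for both drugs against rapamycin and 0 for the average over rapamycin. With quantile normalization again, signs turned in both drugs against rapamycin (Trp73 -0.0040). With median centring, signs turned in tamoxifen against vehicle (Trp73 -0.017), and in rapamycin against vehicle (Trp73 -0.036), and in both drugs against vehicle (Trp73 -0.0034). With the replicate block, signs turned in rapamycin against vehicle (Mdm2 0.0040, Trp73 -0.029), and in both drugs against rapamycin (Phlda3 -0.035). With the squamous mean as a covariate, signs turned in tamoxifen against vehicle (Ccng1 0.024, Phlda3 -0.091, Trp63 -0.53, Trp73 -0.053), and in rapamycin against vehicle (Mdm2 0.076, Trp63 -0.35, Trp73 -0.049), and in both drugs against vehicle (Phlda3 -0.023, Trp63 -0.42, Trp73 -0.049), and in both drugs against rapamycin (Ccng1 0.013, Phlda3 -0.16, Trp63 -0.067), and in the interaction (Ccng1 -0.010), and in the average over rapamycin (Mdm2 0.076, Ccng1 0.019, Phlda3 -0.13, Trp63 -0.30, Trp73 -0.026). With vehicle 2 and tamoxifen 2 left out, signs turned in rapamycin against vehicle (Mdm2 0.37, Trp73 -0.17), and in both drugs against vehicle (Mdm2 0.069, Trp73 -0.14), and in both drugs against tamoxifen (Ccng1 0.025, Phlda3 -0.16). With the parietal mean as a covariate, signs turned in tamoxifen against vehicle (Ccng1 0.74, Phlda3 -1.63, Trp63 -3.20, Trp73 -0.40), and in both drugs against vehicle (Mdm2 0.56, Ccng1 0.52, Phlda3 -1.18, Trp63 -2.20, Trp73 -0.35), and in both drugs against rapamycin (Mdm2 0.82, Ccng1 0.96, Phlda3 -2.29, Trp63 -3.95, Trp73 -0.44), and in the average over rapamycin (Mdm2 1.0, Ccng1 0.85, Phlda3 -1.96, Rrm2b 0.23, Trp63 -3.57, Trp73 -0.42). With 1 array left out in turn, changes that turned sign at least once ranged as Ccng1 -0.20 to 0.31 in the interaction, Phlda3 -0.93 to 0.32 in the interaction, Mdm2 -0.57 to 0.37 in rapamycin against vehicle, Trp73 -0.17 to 0.21 in rapamycin against vehicle, Phlda3 -0.035 to 0.31 in both drugs against rapamycin, Trp73 -0.045 to 0.081 in both drugs against rapamycin, Ccng1 -0.49 to 0.025 in both drugs against tamoxifen, Phlda3 -0.16 to 1.08 in both drugs against tamoxifen, Mdm2 -0.87 to 0.069 in both drugs against vehicle, Trp73 -0.14 to 0.25 in both drugs against vehicle, Ccng1 -0.38 to 0.13 in tamoxifen against vehicle, Mdm2 -0.24 to 0.70 in tamoxifen against vehicle, Phlda3 -0.21 to 1.04 in tamoxifen against vehicle, Trp63 -0.73 to 2.01 in tamoxifen against vehicle, Trp73 -0.19 to 0.20 in tamoxifen against vehicle, Ccng1 -0.22 to 0.031 in the average over rapamycin, Mdm2 -0.27 to 0.20 in the average over rapamycin, Phlda3 -0.048 to 0.57 in the average over rapamycin, Trp63 -0.077 to 1.29 in the average over rapamycin, Trp73 -0.081 to 0.12 in the average over rapamycin. Counts of called proliferation genes ranged from 6 to 12 for tamoxifen against vehicle, 0 to 9 for both drugs against vehicle and 2 to 18 against rapamycin. The labels do not say whether replicate numbers pair the arrays. Over 12 same-numbered pairs the correlation of deviations was -0.11 to 0.56, and 3 were over 0.1. Of these 3, 2 were the vehicle and tamoxifen pairs, at 0.56. In groups of 2 arrays the deviations mirror each other, so these pairs are not independent and cannot settle the pairing. The replicate block is given as an alternative only. The parietal mean was 8.39 to 8.82 on the tamoxifen-treated arrays and 9.63 to 9.99 on the others, so this covariate and tamoxifen cannot be told apart, and under it members' adjusted p for tamoxifen averaged over rapamycin began at 0.758. Of the fractions, no alternative put a member past 1 log2 unit. The cause of the other turns was not tested. The number of arrays limits the precision.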
